A study of Homo sapiens with 6 samples.

Results

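The 10 genes described here were TNF ligands, death receptors and the proteins that receptors recruit, namely TNF, TNFSF10, FAS, TNFRSF10A, TNFRSF10B, TNFRSF1A, FADD, TRADD, RIPK1 and CFLAR. They were chosen by name, with earlier results of these data known, and matched by Ensembl identifier. All 10 were found among the 57905 genes of the count table. The libraries were 6 RNA-SEQ libraries of NALM6, a human line grown from a B cell precursor leukemia. Cells of 3 libraries received the solvent DMSO and cells of the other 3 received 500 nM of THZ1, each for 24 h. THZ1 binds covalently to CDK7, a kinase that phosphorylates RNA polymerase II, and the study examined how it affects the growth, death and metabolism of leukemic B cells. The results rest on 1 cell line, 1 dose and 1 time. The labels do not say whether the 3 libraries of a treatment came from separate cultures, so the p-values measure only the spread between these libraries.

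Death receptors are TNF receptor family members whose intracellular part holds a death domain. FAS binds FAS ligand, TNFRSF10A and TNFRSF10B bind TNFSF10 (also called TRAIL), and TNFRSF1A binds TNF and lymphotoxin. FAS and the TRAIL receptors recruit the adaptor FADD, which brings in the initiator caspase CASP8, whereas TNFRSF1A recruits TRADD and the kinase RIPK1 and can drive either NF-kB signaling or cell death. CFLAR encodes c-FLIP, a relative of CASP8 that lacks protease activity and, in its short forms, blocks CASP8 activation at the receptor.

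The libraries held 11015480 to 11164840 counts with DMSO and 7876402 to 8314306 with THZ1. Counts were divided by TMM-scaled library totals and are given as CPM, the usual unit of reads relative to library size. On this scale 3 counts in a library correspond to 0.246 to 0.253 CPM with DMSO and 0.395 to 0.415 CPM with THZ1. After a filter on low counts, 16622 genes were tested with the quasi-likelihood test of edgeR, and p-values were adjusted over all of them by the Benjamini-Hochberg method. An adjusted p below 0.05 made a gene higher or lower with THZ1 at any fold, and a second rule added a minimum of 1.5 for the size of the log2 fold change. The median log2 fold change of all genes tested was 0.03. All 12 B cell precursor markers were detected and tested, of which 2 were higher and 9 lower. Over all genes tested, 43.5% were higher and 41.1% lower. The summed level of the 12 markers was 4133 to 4269 CPM with DMSO and 2192 to 2257 CPM with THZ1. CPM are shares of a library, so that these sums give neither a number of cells nor an amount of RNA per cell.

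Of the 10 members, 9 passed the filter. TNF, FAS, FADD and CFLAR were called higher with THZ1, TNFRSF1A was called lower, and TNFRSF10A, TNFRSF10B, TRADD and RIPK1 were not called. Among all genes tested, 43.5% were called higher and 41.1% lower, which is the share against which the members' 4 and 1 of 9 are to be read. TNF and FAS also passed the fold threshold of the second rule, which 24.6% of all genes passed as higher and 12.9% as lower, with no member among the latter. The DMSO and THZ1 libraries did not overlap for 5 of the 9 members, while this held for 84.7% of all genes tested. The median log2 fold change of the 9 members was 0.26.

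**Figure D1:**
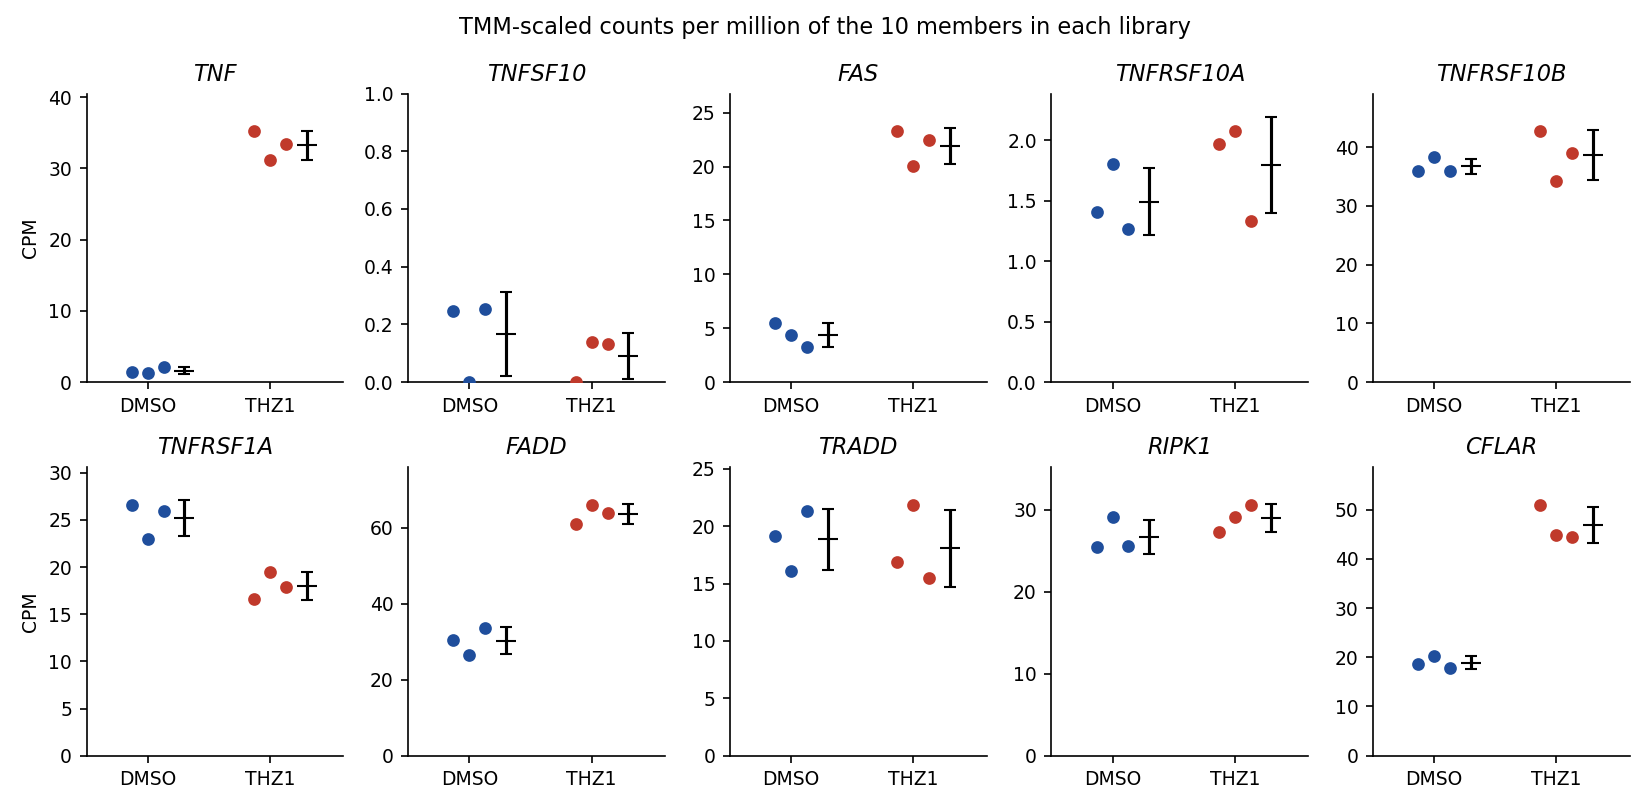
TMM-scaled CPM of the 10 members in each library, with 1 panel per gene, a y axis from 0 that differs between panels, blue points for DMSO, red points for THZ1, and a black dash and bar for the mean and SD of 3 libraries. The treatments are separate in the panels of TNF, FAS, FADD, CFLAR and TNFRSF1A, and TNFSF10 stays at or below 0.253 CPM in every library.

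The upstream sequences of 4 members are shown because these genes span the range of responses, from TNF and FADD, called higher, and TNFRSF1A, called lower, to TNFSF10, which was hardly detected under either treatment. Each is the stretch of 250 bases before the transcription start in RefSeq on GRCh38.p14, read 5′ to 3′ on the strand of the gene. TNF lies at chr6:31575315-31575564 on the plus strand, TNFSF10 at chr3:172523431-172523680 on the minus strand, FADD at chr11:70203046-70203295 on the plus strand and TNFRSF1A at chr12:6342077-6342326 on the minus strand. Capitals mark TATAAA and GGGCGG, the latter a GC box, in either orientation.
TNF: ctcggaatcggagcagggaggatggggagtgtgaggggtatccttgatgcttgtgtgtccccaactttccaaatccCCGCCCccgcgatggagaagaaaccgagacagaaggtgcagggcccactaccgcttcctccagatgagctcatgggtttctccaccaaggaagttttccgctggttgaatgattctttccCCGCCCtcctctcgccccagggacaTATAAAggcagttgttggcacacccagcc
TNFSF10: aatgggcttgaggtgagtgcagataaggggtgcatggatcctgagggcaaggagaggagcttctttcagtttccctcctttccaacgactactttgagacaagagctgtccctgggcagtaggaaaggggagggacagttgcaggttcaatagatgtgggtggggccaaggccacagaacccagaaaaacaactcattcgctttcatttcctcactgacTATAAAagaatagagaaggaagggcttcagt
FADD: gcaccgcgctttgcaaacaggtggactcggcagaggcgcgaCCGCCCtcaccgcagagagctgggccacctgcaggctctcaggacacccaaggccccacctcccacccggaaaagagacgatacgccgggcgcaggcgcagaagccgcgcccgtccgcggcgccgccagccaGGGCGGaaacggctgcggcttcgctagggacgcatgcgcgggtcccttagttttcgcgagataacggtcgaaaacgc
TNFRSF1A: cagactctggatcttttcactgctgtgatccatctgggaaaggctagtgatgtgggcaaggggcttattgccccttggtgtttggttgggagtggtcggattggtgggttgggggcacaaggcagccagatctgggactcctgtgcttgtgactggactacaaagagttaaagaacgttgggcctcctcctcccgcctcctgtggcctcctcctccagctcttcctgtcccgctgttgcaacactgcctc
Counting −1 as the last base before the start, TATAAA began at −29 in TNF and at −31 in TNFSF10. The same letters were found in 10.7% of the 35116 promoters of the RefSeq table. TNF and FADD each held GGGCGG at 2 places, and it was found in 42.6% of promoters. FADD held no TATAAA and TNFSF10 no GGGCGG. TNFRSF1A held neither. An AP-1 site (TGANTCA), which 6.57% of promoters held, was not found in any of these 4 windows. Both strands were searched, and a match describes only the letters in the window. Promoters of 7 of the 10 members were matched in the table, with several starts for FAS, RIPK1 and CFLAR, which are not shown. The AP-1 site was found at −242 in 1 start of FAS and at −160 in 1 start of CFLAR. TATAAA began at −30 in 1 start of RIPK1, which was not called. The other starts of these genes held neither, and GGGCGG was found at starts of each of them.

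TNF, which encodes the founding ligand of the family, lies on chromosome 6 from 31543342 to 31546113 (GRCh37, plus strand). Its counts were 17, 16 and 26 with DMSO, against 268, 225 and 250 with THZ1. Every THZ1 library was far above every DMSO library. The level was 1.64 ± 0.485 CPM (SD) over the 3 DMSO libraries and 33.3 ± 2.05 CPM over the 3 THZ1 libraries. The log2 fold change was 4.34 with a standard error of 0.18 (edgeR adjusted p = 2.3e-20), and 1424 of the genes tested had a higher one. It stayed between 4.18 and 4.58 when each library was left out in turn. Since monocytes and macrophages are well-known producers of TNF, their markers are given beside it. Of 10 markers, S100A8 and S100A9 were at 0 in every library and 4 in all never exceeded 3 counts. Their summed level was 4.304 to 5.539 CPM with DMSO and 19.46 to 21.92 CPM with THZ1, with CD14 the highest there at 8.72 ± 1.10 CPM (SD, n = 3). CD14, CSF1R and CD68 were called higher and LYZ and MPEG1 lower in edgeR. Each passed the filter on low counts only through the treatment where it was higher, so that these calls support no change. The part of such transcripts in the result for TNF was not tested.

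TNFSF10, the TRAIL ligand of TNFRSF10A and TNFRSF10B, lies on chromosome 3 from 172223298 to 172241265 (GRCh37, minus strand). Its counts were 3, 0 and 3 with DMSO, against 0, 1 and 1 with THZ1. No library exceeded 3 counts, so that no difference was detectable at this depth and no fold change is given. The gene is not listed in the deposited FPKM table.

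Of the 4 receptors among the members, FAS had the largest log2 fold change. FAS lies on chromosome 10 from 90750414 to 90775542 (GRCh37, plus strand). It had 66, 53 and 39 counts with DMSO, against 177, 145 and 168 with THZ1. The lowest THZ1 library was above the highest DMSO library. The level was 4.36 ± 1.08 CPM (SD) over the 3 DMSO libraries and 21.9 ± 1.67 CPM over the 3 THZ1 libraries, a log2 fold change of 2.33 with a standard error of 0.17 (edgeR adjusted p = 4.1e-14). On the deposited FPKM values it was smaller, 1.33 (limma adjusted p = 0.00019). On the opposite strand FAS overlaps ACTA2, smooth muscle actin, by 683 bases, and ENSG00000286116 by 3593 bases, for which no counts were analysed here. ACTA2 had 12 to 19 counts with DMSO and 73 to 90 with THZ1, fewer than FAS in every library, and its log2 fold change was 2.98 (edgeR adjusted p = 7.7e-13). The strand setting of the counting is not given in the sources used here, and the division of reads between overlapping genes was not tested.

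The TRAIL receptors were not called in the count test. TNFRSF10A, on chromosome 8 from 23047965 to 23082615 (GRCh37, minus strand), had 17, 22 and 15 counts with DMSO, against 15, 15 and 10 with THZ1. The treatments overlapped, and 1 of the 3 THZ1 libraries lay within the range of DMSO on the CPM scale. The log2 fold change was 0.26 with a standard error of 0.35 at 10 to 22 counts per library (edgeR adjusted p = 0.486). In the deposited FPKM table, by contrast, TNFRSF10A was lower with THZ1, at 2.126, 2.446 and 2.004 FPKM with DMSO and 0.888, 0.980 and 0.481 with THZ1. There limma gave a log2 fold change of −0.85 (adjusted p = 0.00151), so that the direction depends on which table is read. On the opposite strand TNFRSF10A overlaps TNFRSF10A-DT, which had 12 to 17 counts with DMSO and 21 to 30 with THZ1, and TNFRSF10A-AS1, which had at most 5.

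TNFRSF10B, on chromosome 8 from 22877646 to 22926544 (GRCh37, minus strand), had 435, 467 and 427 counts with DMSO, against 325, 248 and 292 with THZ1. At the shallower depth of the THZ1 libraries these counts correspond to 36.8 ± 1.32 and 38.7 ± 4.21 CPM (SD, n = 3 each), and the libraries overlapped. The log2 fold change was 0.08 with a standard error of 0.10 (edgeR adjusted p = 0.476), and its sign changed with the scaling. An RNA on the opposite strand that overlaps it by 803 bases, ENSG00000246130, had 0 counts in every DMSO library and 224, 211 and 218 with THZ1. That is at least 116-fold higher against a floor of 3 counts per library. RHOBTB2, which overlaps TNFRSF10B by 377 bases, had 128 to 218 counts over the libraries and was not called.

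TNFRSF1A, the main receptor of TNF, was the member called lower. It lies on chromosome 12 from 6437923 to 6451280 (GRCh37, minus strand) and had 322, 281 and 308 counts with DMSO, against 126, 141 and 134 with THZ1. All THZ1 libraries were below all DMSO libraries, also after scaling. The level was 25.2 ± 1.92 CPM (SD) over the 3 DMSO libraries and 18.0 ± 1.48 CPM over the 3 THZ1 libraries. The log2 fold change of −0.49 had a standard error of 0.12 (edgeR adjusted p = 0.00039), and it ranged from −0.73 to −0.29 over the 16 alternatives.

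FADD, the adaptor of FAS and the TRAIL receptors, lies on chromosome 11 from 70049402 to 70053496 (GRCh37, plus strand). Its counts were 369, 324 and 399 with DMSO, against 463, 477 and 477 with THZ1. The treatments did not overlap, even before the THZ1 libraries were scaled up for their lower depth. The level was 30.2 ± 3.57 CPM (SD) over the 3 DMSO libraries and 63.6 ± 2.58 CPM over the 3 THZ1 libraries, a log2 fold change of 1.07 with a standard error of 0.10 (edgeR adjusted p = 6.9e-12). ENSG00000254721 on the opposite strand overlaps FADD by 1100 bases, had 238 to 283 counts with DMSO and 295 to 320 with THZ1, and was also called higher, by 0.94 on the log2 scale (edgeR adjusted p = 1.1e-09). Whether the genes share reads was not tested.

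TRADD and RIPK1, the proteins that TNFRSF1A recruits, were not called. TRADD, on chromosome 16 from 67188088 to 67193812 (GRCh37, minus strand), had 231, 196 and 253 counts with DMSO, against 128, 158 and 116 with THZ1. Its CPM overlapped between treatments, at 18.8 ± 2.65 and 18.1 ± 3.36 (SD, n = 3 each), with a log2 fold change of −0.06 and a standard error of 0.14 (edgeR adjusted p = 0.683). RIPK1, a kinase that directs the complex toward survival or death, lies on chromosome 6 from 3064058 to 3115421 (GRCh37, plus strand). It had 308, 355 and 303 counts with DMSO, against 207, 210 and 229 with THZ1. These were 26.7 ± 2.07 and 29.0 ± 1.70 CPM (SD, n = 3 each), again with overlap, and the log2 fold change was 0.12 with a standard error of 0.11 (edgeR adjusted p = 0.308). ENSG00000272277, on the strand opposite to RIPK1 and overlapping it by 850 bases, had 8 to 13 counts with DMSO and 127 to 167 with THZ1.

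CFLAR, the inhibitor of the group, lies on chromosome 2 from 201980877 to 202041410 (GRCh37, plus strand). It had 226, 248 and 210 counts with DMSO, against 388, 324 and 333 with THZ1. Every THZ1 library was above every DMSO library. The level was 18.9 ± 1.32 CPM (SD) over the 3 DMSO libraries and 46.8 ± 3.66 CPM over the 3 THZ1 libraries, a log2 fold change of 1.31 with a standard error of 0.10 (edgeR adjusted p = 4.9e-13). In the FPKM table the change was much smaller, from 3.24 ± 0.0959 to 4.04 ± 0.431 FPKM (SD, n = 3 each), a log2 fold change of 0.25 (limma adjusted p = 0.0356). The counts do not separate the long and short forms of c-FLIP. Of the genes that overlap CFLAR, CFLAR-AS1 had 8 to 26 counts in every library and IMPDH1P10 had 10 to 16 with DMSO and 37 to 42 with THZ1. The other overlapping genes in the count table had at most 2 counts in any library.

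**Figure D2:**
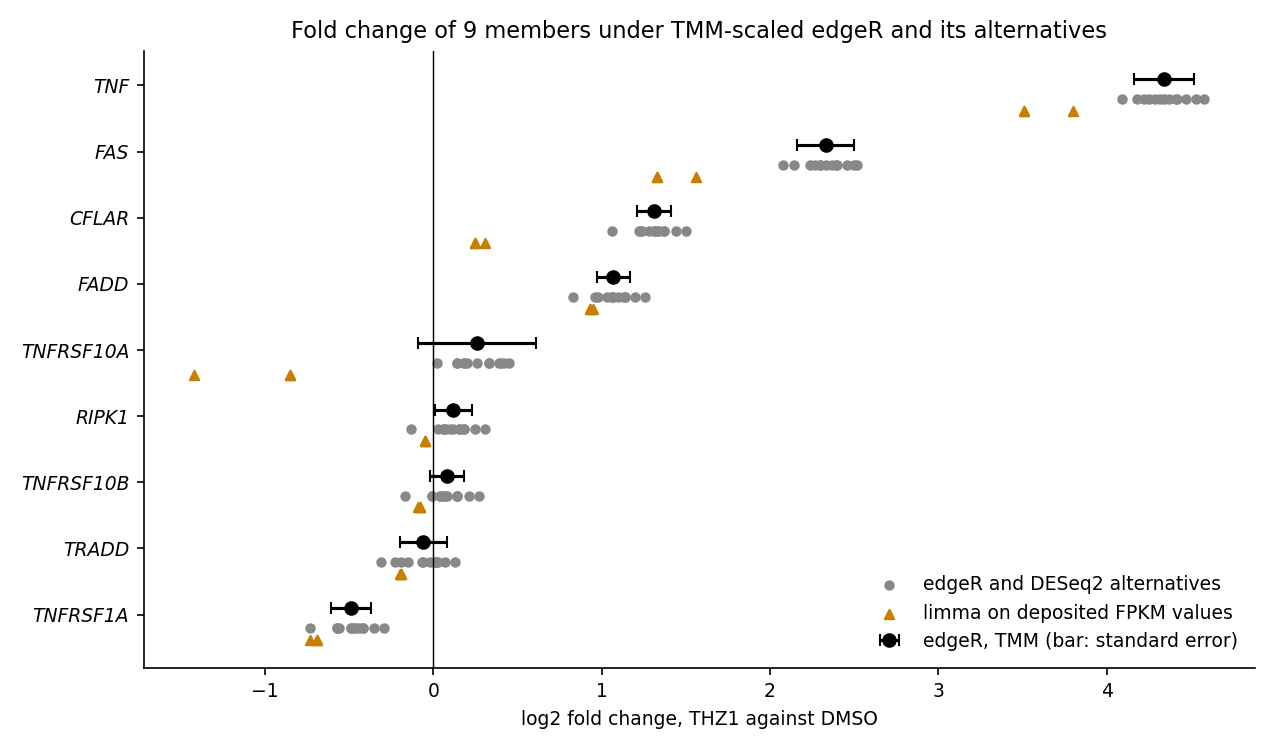
Log2 fold change of the 9 tested members, THZ1 against DMSO, with black points and standard errors for TMM-scaled edgeR, grey points for the alternatives on counts and triangles for limma on the deposited FPKM values. TNF, FAS, CFLAR, FADD and TNFRSF1A keep their sign in every setting, CFLAR lies at 0.25 to 0.31 among the triangles and at 1.31 for edgeR, and TNFRSF10A lies below 0 only among the triangles.

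Levels of different genes were compared on the FPKM scale, which divides by transcript length and was computed by the authors with RSEM. With DMSO, FADD was the highest of the 9 listed members at 45.5 FPKM, followed by TRADD at 24.2, TNFRSF10B at 20.8, RIPK1 at 18.3 and TNFRSF1A at 18.0. TNF, CFLAR, FAS and TNFRSF10A lay far below them, at 3.65, 3.24, 3.06 and 2.19 FPKM. Neighbours whose libraries overlapped were TRADD and TNFRSF10B, RIPK1 and TNFRSF1A, TNF and CFLAR, and CFLAR and FAS. With THZ1, FADD stayed first at 87.6 FPKM and TNF stood next at 51.4, with no overlap between them. They were followed by TRADD at 21.2, TNFRSF10B at 19.7 and RIPK1 at 17.6, whose libraries overlapped from neighbour to neighbour. TNFRSF1A at 10.8 and FAS at 9.15 overlapped as well, above CFLAR at 4.04 and TNFRSF10A at 0.783. In this order TNF moved from sixth to second place.

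**Figure D3:**
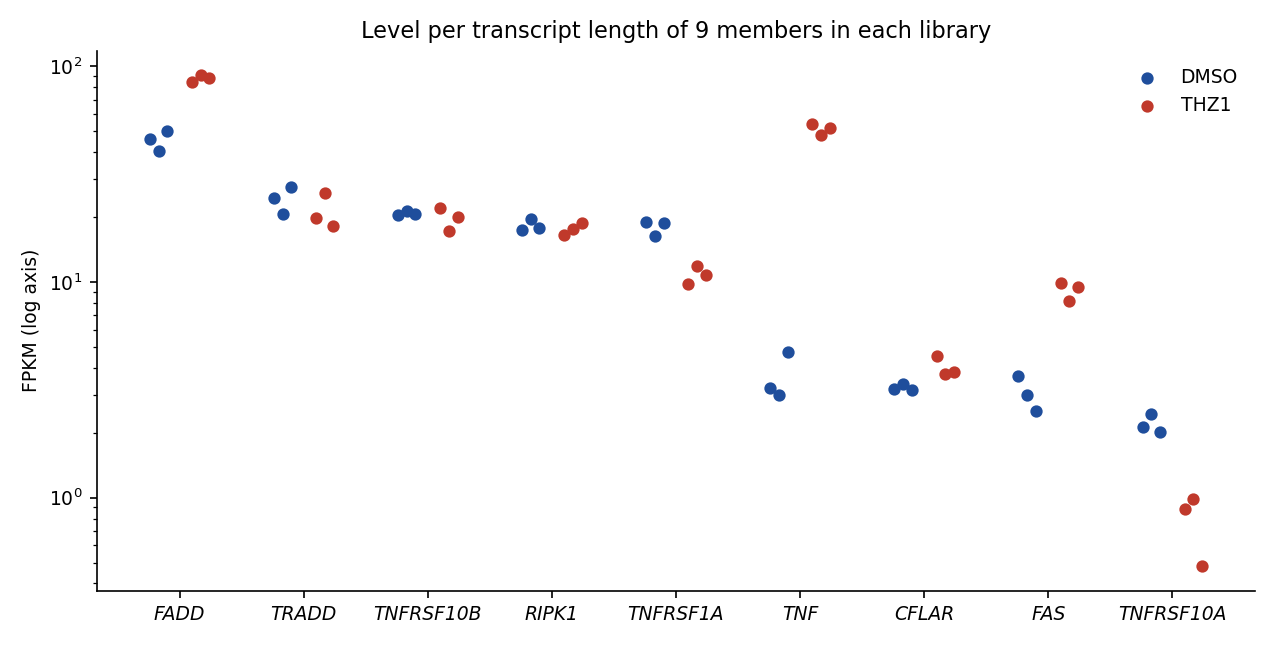
FPKM of 9 members in each library on a log axis, ordered by the mean with DMSO, with blue points for DMSO and red points for THZ1. TNF rises from 3.65 to 51.4 FPKM on average and passes 4 of the 5 members that were above it with DMSO, while TNFRSF10A falls from 2.19 to 0.783 FPKM.

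Ratios of 2 genes within a library do not depend on the scaling between libraries. Of these, 3 ratios between members and the ratio of CFLAR to CASP8, which is not a member, were compared with two-sided exact permutation tests, where 3 against 3 libraries cannot give a p below 0.1. The log2 ratio of CFLAR to CASP8 counts was −1.19, −1.06 and −1.19 with DMSO and 0.03, −0.21 and −0.16 with THZ1. The treatments did not overlap, and the mean ratio was 1.03 higher with THZ1 (exact p = 0.1, adjusted over the 4 ratios 0.4). CFLAR to FADD, both called higher, gave mean log2 ratios of −0.67 ± 0.27 and −0.44 ± 0.16 (SD, n = 3 each, exact p = 0.3), with overlap. TNFRSF10B to TNFRSF10A changed by −0.20 (exact p = 0.7) and RIPK1 to TRADD by 0.18 (exact p = 0.6), also with overlap.

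The other genes of the pathway were taken from 6 lists written from general knowledge, though with earlier results of these data known. The lists held 89 genes in all, of which 88 were in the count table and 66 were tested. Of these, 31 (46.97%) were called higher, 25 (37.88%) lower and 10 neither, near the 43.5% higher and 41.1% lower over all genes tested. The median log2 fold change of the 66 genes was 0.05, close to that of all genes. Of the 16 other ligands of the family, 5 were at 0 in every library and 9 were tested. Of the tested ligands, 6 were called higher, 1 lower and 2 neither, and their median log2 fold change was 2.73, beside 43.5% higher, 41.1% lower and a median of 0.03 over all genes tested. Without DMSO replicate 2 or THZ1 replicate 2, 2 ligands were called lower. LTA, the lymphotoxin that shares TNFRSF1A with TNF, had 9, 8 and 13 counts with DMSO and 55, 54 and 53 with THZ1, a log2 fold change of 3.11 (edgeR adjusted p = 1.3e-11). LTB, which anchors lymphotoxin in the membrane, had 12, 19 and 25 against 154, 145 and 144 counts, a log2 fold change of 3.67 (edgeR adjusted p = 7.8e-17). LTA, LTB and TNF are neighbours on chromosome 6. TNFSF12, also called TWEAK, was at 0 with DMSO and had 25, 30 and 17 counts with THZ1, at least 12.8-fold higher against 3 counts per library. TNFSF12 and LTA passed the filter on low counts only through the THZ1 libraries. They are therefore no support for the count of 6 or for the median of 2.73. TNFSF13B, the B cell survival factor BAFF, had the lowest value, −1.08, and was not called (edgeR adjusted p = 0.0633). With 18, 13 and 14 counts with DMSO and 4, 9 and 0 with THZ1, it passed the filter only through the DMSO libraries. It is no support for the median either. FASLG, the ligand of FAS, had 0, 3 and 2 counts with DMSO and 7, 2 and 9 with THZ1 and was too low to be tested. Markers of T and NK cells, which express FASLG, summed to 7.17 to 8.85 CPM with DMSO and 9.224 to 14.95 CPM with THZ1 over 9 genes. KLRD1, CD8A and GZMB were at 0. The only marker tested was NKG7, called higher by 0.49 on the log2 scale (edgeR adjusted p = 0.0103). NKG7 made up most of these sums, at 7.09 to 8.85 CPM with DMSO and 8.69 to 13.29 CPM with THZ1, so that its libraries overlapped between treatments.

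Of the 8 other death domain and decoy receptors, 2 were tested, 1 higher and 1 lower, beside 43.5% and 41.1% of all genes tested. TNFRSF10D, a decoy receptor for TRAIL with a truncated death domain, had 82, 115 and 100 counts with DMSO, against 1207, 1081 and 1113 with THZ1. The treatments were far apart, and the log2 fold change was 4.21 with a standard error of 0.10 (edgeR adjusted p = 4.8e-26). TNFRSF10C, the other decoy for TRAIL, had at most 3 counts in any library. TNFRSF21, the death receptor DR6, had 141, 156 and 131 counts against 22, 18 and 34, a log2 fold change of −1.83 (edgeR adjusted p = 1.5e-09). These receptor genes are similar in sequence, and reads that match several of them may have been left out or divided in the counting.

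Of the 17 remaining receptors of the family, 10 were tested, of which 5 were higher and 3 lower, with a median of 0.54. Over all genes tested, 43.5% were higher and 41.1% lower, with a median of 0.03. TNFRSF4 (OX40) had 2, 0 and 0 counts with DMSO and 34, 42 and 43 with THZ1, a ratio of 96.4 per scaled count with an exact 95% interval of 26.1 to 805 that covers counting error only. TNFRSF4 and TNFRSF18 passed the filter only through the THZ1 libraries. TNFRSF13B, called lower at 32, 17 and 27 counts with DMSO against 5, 1 and 2 with THZ1, passed only through the DMSO libraries. These genes are therefore no support for the counts of 5 and 3 or for the median of 0.54. TNFRSF1B, the TNF receptor without a death domain, fell from 412, 402 and 385 counts to 44, 22 and 53, a log2 fold change of −2.63 (edgeR adjusted p = 1.1e-15). Both receptors of TNF were lower with THZ1 and the ligand was higher.

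Downstream, 15 of the 16 genes of the caspase and necroptosis arm were tested, with 5 higher, 7 lower and a median of −0.01. These are 33.33% and 46.67% of the arm, beside 43.5% and 41.1% of all genes tested. CASP8, the initiator caspase bound by FADD, had 479 to 517 counts with DMSO and 371 to 379 with THZ1, which after scaling was a log2 fold change of 0.27 (edgeR adjusted p = 0.00547). CASP10, its close relative, had 87 to 103 counts and 44 to 77 counts, with a log2 fold change of −0.01 (edgeR adjusted p = 0.971). PIDD1, a death domain protein that activates CASP2 after DNA damage, had the highest value of the arm, 2.59 (edgeR adjusted p = 2.4e-24), and FAF1, a FAS-binding protein, the lowest, −2.26 (edgeR adjusted p = 3.6e-19). RIPK3, the partner of RIPK1 in necroptosis, had 1 count in 1 library and 0 in the others.

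In the ubiquitin and kinase arm, which carries the signal from RIPK1 to NF-kB, 18 of 20 genes were tested, with 8 higher, 7 lower and a median of −0.03. These shares, 44.44% and 38.89%, were near the 43.5% and 41.1% over all genes tested. TRAF1, an NF-kB target that binds TRAF2, was highest at 1.86 (edgeR adjusted p = 5.1e-10). TAB1, an activator of the kinase TAK1, fell from 484 to 526 counts to 20 to 33 counts, a log2 fold change of −3.60 (edgeR adjusted p = 6.2e-20). All 12 genes of TNF shedding and induced feedback were tested, of which 6 were higher and 6 lower, with a median of 0.06. Each is 50% of the list, beside 43.5% higher and 41.1% lower over all genes tested. ZFP36 (tristetraprolin), which binds TNF mRNA and promotes its decay, rose from 329 to 396 counts to 1996 to 2060, a log2 fold change of 3.20 (edgeR adjusted p = 1.9e-25). TNFAIP8 was lowest at −2.83 (edgeR adjusted p = 1.1e-14).

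**Figure D4:**
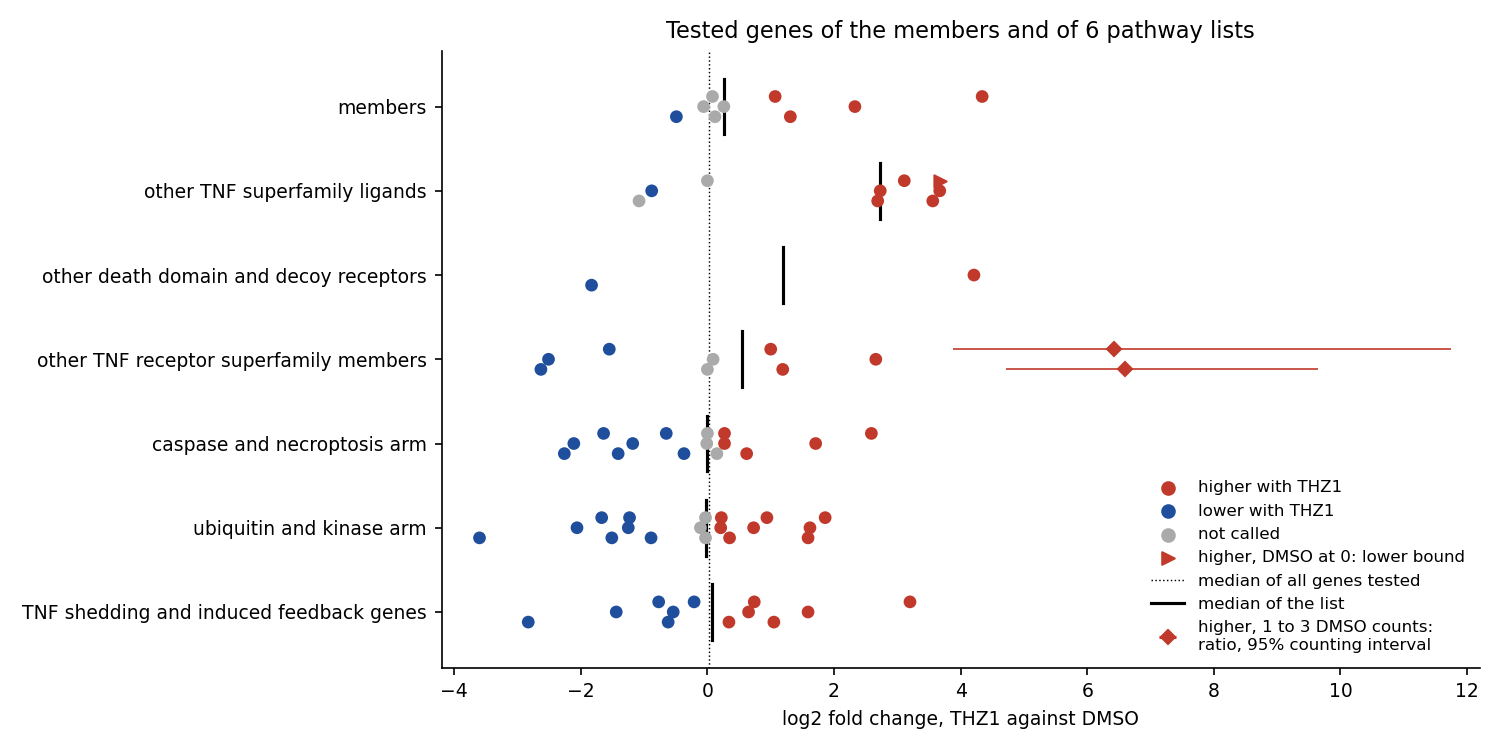
Log2 fold change of each tested gene of the members and the 6 pathway lists, with red for genes called higher, blue for lower, grey for not called, a black bar for the median of each list and a dotted line for the median of all genes tested. An arrow stands for the lower bound of TNFSF12, and diamonds with lines stand for the ratio and 95% counting interval of TNFRSF4 and TNFRSF18. The median of the other ligands lies at 2.73 and those of the last 3 lists between −0.03 and 0.06. TNFSF12 and LTA passed the filter only through THZ1 and TNFSF13B only through DMSO, and are no support for the 2.73.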

How the data were processed

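The data were 6 RNA-SEQ libraries of NALM6 cells, 3 for each treatment. According to the methods, reads were filtered, aligned to GRCh37 by STAR and counted per gene by htseq-count, and the authors deposited these raw counts. Annotation and strand setting are not given in the sources used here. A second deposited table holds RSEM FPKM as log2 values, which were read as log2(FPKM + 1) and taken back to FPKM. Its libraries of one treatment, unlike those of different treatments, have nearly the same value distribution by an unstated step. The effect of that step on the spread behind the limma p-values was not tested. Its columns of the authors' own fold changes, p-values and FDR were not used.

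Members and lists were chosen with earlier results of these data known, and no list was tested as a set. Genes were filtered with filterByExpr (minimum count 10, minimum total 15) and tested in edgeR 4.0.16 with TMM, treatment only, two-sided, in R 4.3.3. Standard errors were derived from the fold change and the F statistic. The script was checked on simulated counts. Of 131 list genes, 129 were matched by identifier, with positions from GENCODE lifted to GRCh37; IKBKG and TRAC were not matched. Alternatives were other scalings, filters, DESeq2 1.42.0, a replicate block, each library left out, and limma 3.58.1 on FPKM with pseudocounts of 1 and 0.1. Named were all members, their overlapping genes with counts, the extremes of each list, and LTA, LTB, FASLG, TNFRSF10C, TNFRSF10D, CASP8 and CASP10. Genes that passed the filter only through a single treatment were named as well. Depth was 7876402 to 11164840 counts per library. Intervals and floors cover counting error only. Figures were drawn with matplotlib 3.10.9 in Python 3.11.15. Results of some genes of the lists are not reported here.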

Additional observations from a re-analysis of the deposited data

How the results depend on the processing

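Of 368 alternative values, 334 kept their direction and their side of the threshold, or stayed within 1.5 times of a count. The 334 include the ratios of 2 genes, whose exact permutation tests cannot give a p below 0.1. These could not cross the threshold, and only a change of direction could have moved them. TNF, FAS, FADD, TNFRSF1A and CFLAR kept their call under all 16 alternatives, with log2 ranges of 3.51 to 4.58, 1.33 to 2.52, 0.83 to 1.26 and −0.73 to −0.29 for the first 4. The lowest value for CFLAR was 0.25, with limma on log2(FPKM + 1). The limma p-values rest on FPKM values whose distributions were nearly the same within a treatment, and how this affects them was not tested. TNFRSF10A was −0.85 with limma on log2(FPKM + 1) and at a mean FPKM of at least 1, and −1.42 with a pseudocount of 0.1; the cause was not tested. The other 3 uncalled members lay near 0 and moved with the scaling, which shifted the median of all genes by 0.19 (upper quartile), −0.25 (library sizes alone), 0.07 (RLE, DESeq2) and −0.18 to −0.21 (limma on FPKM). The filters changed the genes tested: without one, the median over 30884 genes was higher by 0.42 while these 3 members were lower, and with at least 10 counts in every library it shifted by −0.05 while they were higher. With upper quartile factors TNFRSF10B was 0.27 (adjusted p = 0.0131), RIPK1 0.31 (adjusted p = 0.00873) and TRADD 0.13, all in edgeR. With library sizes alone they were −0.17, −0.13 and −0.31 (edgeR adjusted p = 0.0419 for TRADD). TRADD was 0.01 with RLE factors and DESeq2 and 0.07 with at least 10 counts in every library, where RIPK1 was 0.25 (edgeR adjusted p = 0.0332) and TNFRSF10B 0.21. TNFRSF10B was −0.01 without a filter and, with limma, −0.08, −0.09 and −0.08, where RIPK1 was −0.05 each time. Leaving out single libraries gave −0.01 to 0.14 for TNFRSF10B, below 0 only without THZ1 replicate 1, and −0.23 to 0.03 for TRADD, above 0 without DMSO replicate 3 or THZ1 replicate 3. Members called lower numbered 2 with library sizes alone, where 7985 of 16622 genes were lower, and with each limma setting, where 7297 to 7400 genes of up to 16730 were lower, and members higher by at least 1.5 numbered 1 with limma at a pseudocount of 1 and at a mean FPKM of at least 1. With library sizes alone, 2 other ligands were called lower, 3 genes of the caspase arm higher and 5 genes of the ubiquitin arm higher. Under that scaling, 6319 of 16622 genes were higher and 7985 lower. Leaving out single libraries gave 1 to 2 other ligands lower, with 2 without DMSO replicate 2 or THZ1 replicate 2.

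The replicate numbers did not pair the libraries, with correlations of −0.004, 0.000969 and 0.0206 between deviations of the same number. A replicate block gave 7181 genes higher and 6786 lower, against 7224 and 6826 without it, and changed no member's call. Depth limits TNFSF10, FASLG, TNFRSF10C and RIPK3, which had too few counts to be tested, and TNFRSF10A. No spike-in was analysed here, so all changes are relative to the scaling.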

Other observations

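Within the lists, several further genes stand out, all chosen after their values were seen. Among the ligands, CD70, which binds CD27, rose from 2.02 ± 0.615 to 24.0 ± 0.273 CPM (SD, n = 3 each), and its receptor CD27 rose as well, by 1.00 on the log2 scale (edgeR adjusted p = 1.8e-07). TNFSF9, the ligand of the costimulatory receptor TNFRSF9, rose by 2.73 on the log2 scale (edgeR adjusted p = 4.3e-15), while TNFRSF9 itself was at 0 in every library. TNFRSF12A, the receptor of TNFSF12, rose by 2.66 on the log2 scale (edgeR adjusted p = 3.9e-13). Its ligand passed the filter on low counts only through the THZ1 libraries and is no support for a joint rise.

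Of the TRAF adaptors in the lists, TRAF2, TRAF3 and TRAF5 were lower with THZ1, with log2 fold changes of −1.25, −2.06 and −1.67, and TRAF1 was higher, at 1.86. BIRC2, an E3 ligase that TRAF2 brings to the receptor, was higher by 1.62 (edgeR adjusted p = 8.3e-16). CASP6, an effector caspase, had a log2 fold change of −1.18 and was called lower (edgeR adjusted p = 8.6e-10). BID, which links CASP8 to mitochondria, and MLKL, the effector of necroptosis, were lower by more, with log2 fold changes of −1.64 and −2.11 (edgeR adjusted p = 4.0e-15 and 8.6e-14). Of the NF-kB genes, NFKBIA, NFKBIE and RELB were higher, at 1.05, 0.65 and 1.59, and NFKB1 and NFKB2 lower, at −0.62 and −0.54.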
